A study of Mus musculus with 6 samples.

Results

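The genes described here build and run the DNA replication fork: the origin recognition complex, the kinase that fires origins and the protein that blocks relicensing, the GINS part of the helicase, the replicative polymerases, the sliding clamp with its loaders, the single-strand binding complex and the enzymes that finish the lagging strand. They were 42 named genes, listed by symbol with earlier results of these data known, of 20832 genes with a named probe and 13729 genes tested. All 42 had a probe that was well above background on all 6 arrays. RNA came from primary prostate cells of mouse genotype p53-/- Rbf/f, in which the tumour suppressor p53 is absent and both Rb alleles carry loxP sites. Of the 6 cultures, 3 received an adenovirus with lacZ, which left Rb intact (Rb intact 1 to 3). The other 3 received an adenovirus with Cre recombinase, which turned the genotype into p53-/- Rb deltaf/deltaf (Rb deleted 1 to 3). RNA was taken 48 hours after infection, and each sample was hybridised to its own 1-colour array.

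Replication starts where the origin recognition complex, ORC, has marked DNA and loaded the MCM helicase. The Cdc7-Dbf4 kinase then activates the helicase together with GINS and Cdc45, polymerase alpha-primase lays down primers, and polymerases epsilon and delta extend them on the leading and lagging strands behind the PCNA clamp. Many of these genes are known targets of E2F transcription factors, which the retinoblastoma protein Rb holds in check until cells enter S phase.

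The letters of the promoters are shown first because they do not depend on the array values. Many of these genes are known E2F targets, so the choice of members may not be independent of E2F motifs. RefSeq promoters of build GRCm38.p6, from 250 bases before to 50 bases after the start site, matched 32 of the 42 genes. The motifs searched on both strands were the 4 eight-letter forms TTTCCCGC, TTTCGCGC, TTTGCCGC and TTTGGCGC. At least 1 of them occurred in the promoters of 10 of the 32 genes, or 31.2% (95% Wilson interval 17.9 to 48.6%). Among the 10928 genes tested that have such a promoter, the share was 4.46%, and over the 27025 genes for which RefSeq promoters were at hand it was 2.61%. In 6 genes a match lay before the start site, and 100 bases of each of these are given from the gene's own strand, 5′ to 3′, with the E2F letters in capitals.
Orc1, chr4:108579354-108579453, plus strand: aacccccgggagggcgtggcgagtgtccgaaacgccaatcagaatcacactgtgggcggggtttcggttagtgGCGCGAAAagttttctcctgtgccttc
Orc3, chr4:34614943-34615042, minus strand: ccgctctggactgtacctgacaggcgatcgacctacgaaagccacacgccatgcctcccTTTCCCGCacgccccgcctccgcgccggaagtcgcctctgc
Pola1, chrX:93632236-93632335, minus strand: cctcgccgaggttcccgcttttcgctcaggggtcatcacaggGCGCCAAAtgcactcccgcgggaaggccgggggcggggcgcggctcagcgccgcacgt
Rfc3, chr5:151651209-151651308, minus strand: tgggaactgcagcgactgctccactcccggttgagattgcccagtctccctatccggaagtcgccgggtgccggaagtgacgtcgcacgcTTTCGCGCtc
Pole4, chr6:82652866-82652965, minus strand: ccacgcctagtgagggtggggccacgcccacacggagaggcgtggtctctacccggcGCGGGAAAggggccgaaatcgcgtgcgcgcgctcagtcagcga
Gins3, chr8:95633459-95633558, plus strand: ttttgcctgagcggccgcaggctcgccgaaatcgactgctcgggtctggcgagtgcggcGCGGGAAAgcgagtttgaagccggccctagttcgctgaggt
Counted from the start site, the first base of the match was at -10 in Rfc3, -27 in Orc1, -41 in Orc3 and Gins3, -43 in Pole4 and -138 in Pola1. In the other 4 genes the match lay within 50 bases after the start, and 30 bases around it are shown, again with capitals for the E2F letters.
Pole2, chr12:69228161-69228190, minus strand: gtcggcggtgGCGCCAAAtcgcgaacatgg
Pold1, chr7:44548766-44548795, minus strand: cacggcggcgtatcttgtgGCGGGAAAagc
Pold3, chr7:100121467-100121496, minus strand: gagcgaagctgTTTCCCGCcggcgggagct
Lig1, chr7:13278841-13278870, plus strand: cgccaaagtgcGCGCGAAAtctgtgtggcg
The seven-letter forms, each an eight-letter form above without its first T, occurred in the promoters of 21 of the 32 genes (65.6%) against 18.2% of genes tested. The CCAAT box, searched on both strands, occurred in 16 of 32 (50%) against 42.7% of genes tested. A match describes these windows only and does not show that a factor binds there.

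Several facts of the experiment touch every value given here. Rb deleted 2 and 3 were on a slide of their own, and Rb deleted 1 shared the first slide with the 3 Rb intact arrays, so a comparison within a slide rests on Rb deleted 1 alone. Virus and Rb status could not be told apart. The targeted gene Rb1 was lower in every Rb deleted culture, at -1.14 ± 0.02 against -3.10 ± 0.03 (SD, n = 3 each), a difference of -1.96 ± 0.05 (limma adjusted p = 8.14e-05). A level is the log2 intensity minus the 75th percentile of its array. Of the epithelial markers expected in prostate, Krt8, Krt18, Krt14 and Trp63 were measured, but Krt5, Krt15, Pbsn and Hoxb13 were not well above background on all arrays of either group. Ptprc, the general leukocyte marker, was not either. In RNA of whole cultures, fewer cells of a type and less RNA per cell cannot be told apart.

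Replication fork genes were higher without Rb, by small amounts, and at least 1 gene rose in 10 of the 11 subcomplexes. Of the 42 genes 24 rose (57.1%) and 0 fell, where 20.4% of all genes tested were called, 9.67% up and 10.8% down (limma, Benjamini-Hochberg adjusted p under 0.05 over 13729 genes). At an unadjusted p under 0.05, 30 were higher and 0 lower, against 18.3% of all genes higher and 17.4% lower. The median difference, Rb deleted minus Rb intact, was 0.27 on the log2 scale against 0.01 over all genes tested, and single genes ranged from -0.05 (Gins3) to 0.60 (Gins1). In 35 of the 42 the lowest Rb deleted array lay above the highest Rb intact array, which held for 23.7% of all genes, and in 0 were they lower without overlap, against 21.5% of all genes. The largest rises among called genes were those of Gins1 (1.52-fold), Pole2 (1.51-fold), Usp1 (1.48-fold), Wdhd1 (1.43-fold) and Pold1 (1.42-fold).

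**Figure D1:**
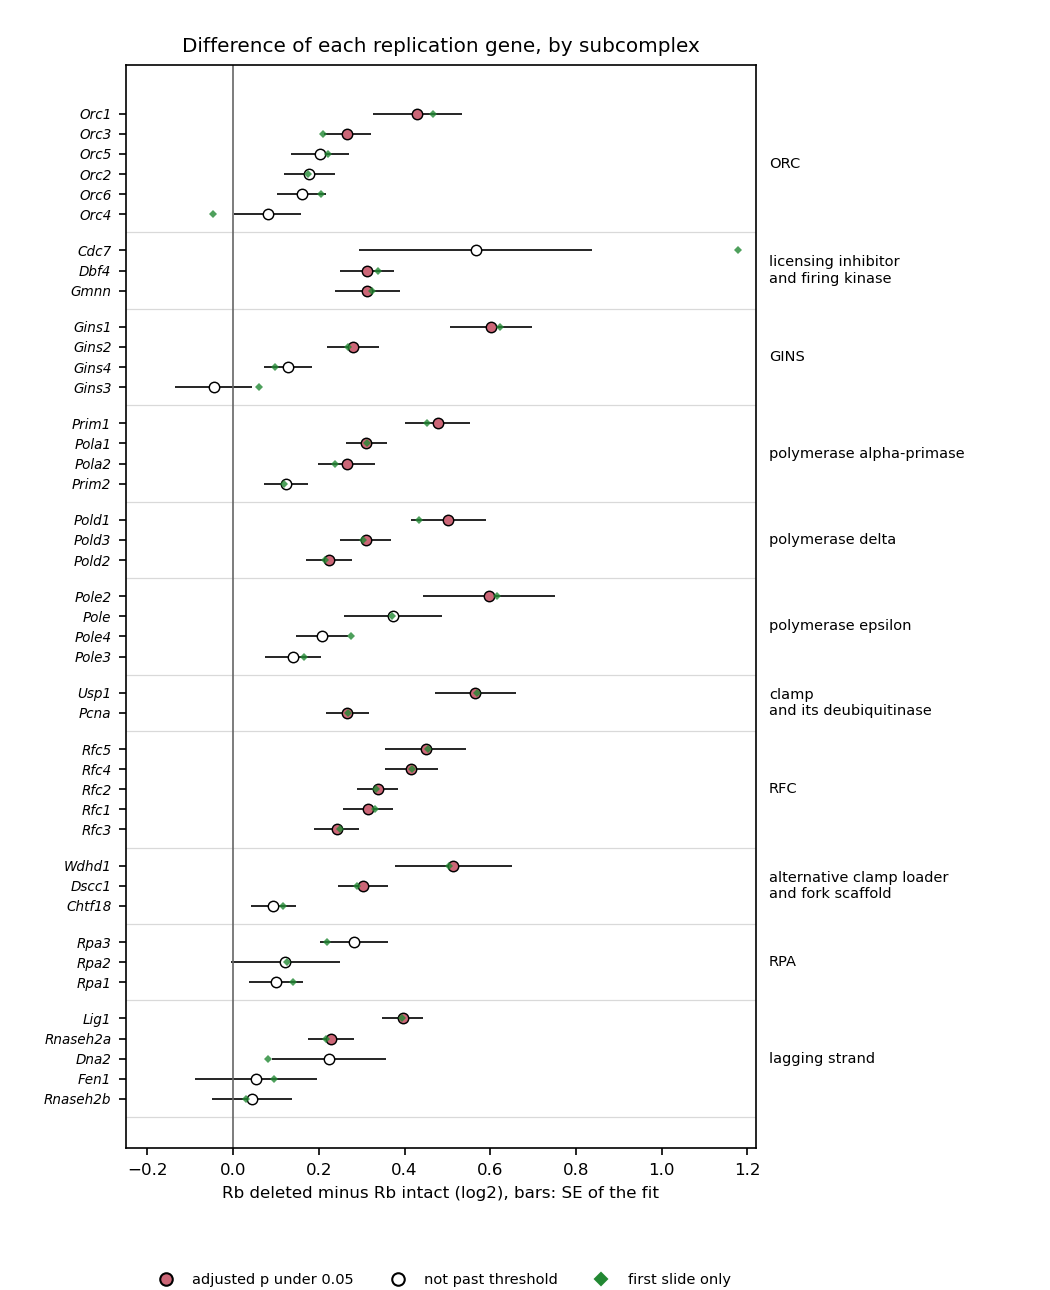
Difference Rb deleted minus Rb intact (log2, x axis) for each of the 42 genes, grouped by subcomplex; circles are the fit of all 6 arrays with bars for the SE, filled where the gene rose, and diamonds are the value within the first slide. All circles except that of Gins3 lie above 0, and all 5 RFC genes are filled.

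**Figure D2:**
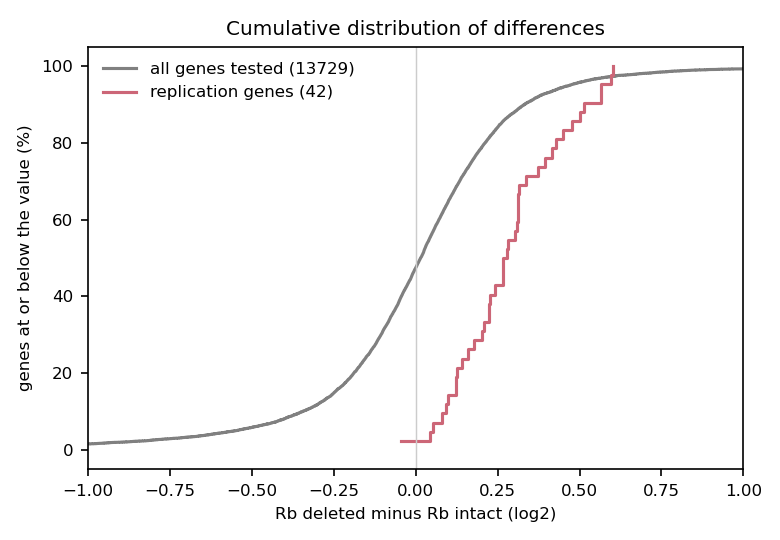
Cumulative share of genes (y axis, percent) by difference Rb deleted minus Rb intact (log2, x axis, drawn from -1 to 1) for the 42 replication genes and the 13729 genes tested. The median is 0.27 for the replication genes and 0.01 for all genes.

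How many of the 42 passed the threshold depended on the slide and on single arrays, and so did the size of the difference in some genes. Within the first slide the median was also 0.27 and 41 of 42 differences were above 0, but 0 genes passed limma's threshold there (0.853% of all genes rose) and 11 were higher at an unadjusted p under 0.05 (6.68% of all genes). Dna2 went from 0.22 to 0.08 and Cdc7 from 0.57 to 1.18. With slide as a block 1 gene was called, Cdc7 (1.46% of all genes rose), and 23 were higher at an unadjusted p under 0.05 (8.97% of all genes). The number risen was 32 without Rb intact 1 (19.1% of all genes rose), 14 without Rb intact 2 (5.27%), 9 without Rb intact 3 (5.31%), 9 without Rb deleted 1 (6.33%), 7 without Rb deleted 2 (3.38%) and 7 without Rb deleted 3 (3.46%). The 8 genes gained without Rb intact 1 were Orc5, Prim2, Pole, Pole4, Rpa2, Rpa3, Fen1 and Rnaseh2b. The genes called in all 6 of these reduced sets were Gins1, Pola1, Prim1, Usp1, Rfc2, Rfc4 and Lig1, 7 of the 24. Pold1 was lost without Rb deleted 2 or 3, Wdhd1 without Rb intact 2 or any Rb deleted array, and Orc3 without Rb intact 2 or 3 or Rb deleted 2 or 3. Gins2, Pola2, Pole2, Pcna, Rfc1 and Rfc5 were lost without Rb intact 3 or any Rb deleted array. Orc1, Gmnn, Dbf4, Pold2, Pold3, Rfc3, Dscc1 and Rnaseh2a were lost without any array other than Rb intact 1.

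Over the 42 genes, each Rb deleted array stood above the Rb intact mean in 41. The median of a gene's level minus its Rb intact mean was 0.27 on Rb deleted 1, 0.29 on Rb deleted 2 and 0.26 on Rb deleted 3. On the Rb intact arrays it was -0.03, 0.01 and -0.0041 for replicates 1, 2 and 3. The Rb deleted arrays lay closer together, with a median SD per gene of 0.03 against 0.09 in Rb intact. Over all genes tested these SDs were 0.06 and 0.12. Rb intact 1 was the lowest Rb intact array for 22 of the 42 genes and the highest for 18.

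**Figure D3:**
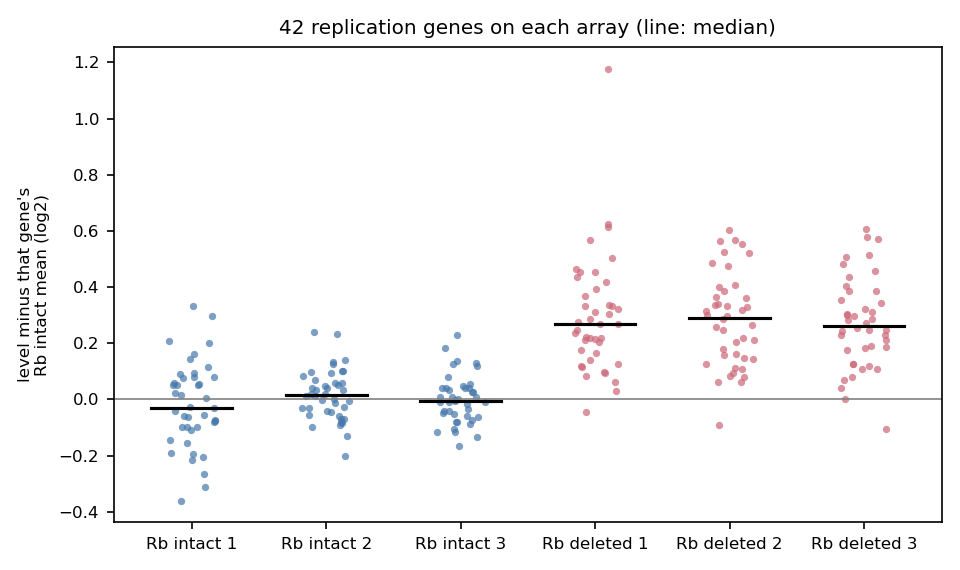
Level of each of the 42 genes minus that gene's Rb intact mean (log2, y axis) on each of the 6 arrays (x axis); points are genes and lines medians. The medians of the Rb deleted arrays lie between 0.26 and 0.29 and those of the Rb intact arrays between -0.03 and 0.01.

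ORC, the complex that binds origins, moved unevenly. Of its 6 genes Orc1 and Orc3 rose, and the median difference was 0.19. Orc1, an ATP-binding subunit whose level is known to swing with the cell cycle, stood at -2.71, -2.40 and -2.37 on Rb intact 1 to 3 and at -2.03, -2.15 and -2.01 on Rb deleted 1 to 3. The groups did not overlap, and Rb intact 1 was the lowest array; Orc1 rose by 0.43 ± 0.10 (SE, limma adjusted p = 0.0341). Orc3, a core subunit, was at 1.74, 1.82 and 1.79 in Rb intact and 1.99, 2.10 and 2.05 in Rb deleted, again without overlap, and rose by 0.27 ± 0.06 (limma adjusted p = 0.021). A further probe for Orc3 gave 0.02 ± 0.09 and was not called, so the Orc3 rise rests on 1 of 2 probes. Orc2 (0.18 ± 0.06, limma adjusted p = 0.0864), Orc5 (0.20 ± 0.07, 0.0809) and Orc6 (0.16 ± 0.06, 0.0982) did not pass the threshold, although their groups did not overlap. Orc4 was the lowest of the complex, at -2.64, -2.76 and -2.76 in Rb intact and -2.76, -2.54 and -2.61 in Rb deleted. Its groups overlapped, and its difference was 0.08 ± 0.08 (limma adjusted p = 0.493), or -0.05 within the first slide.

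Of the genes that time licensing and firing, Gmnn and Dbf4 rose. Gmnn encodes geminin, the inhibitor of the licensing factor Cdt1, and stood at 0.59, 0.44 and 0.39 in Rb intact and 0.80, 0.86 and 0.70 in Rb deleted, a rise of 0.31 ± 0.08 (limma adjusted p = 0.0342). Dbf4, the activating subunit of the Cdc7 kinase, was at -0.17, -0.27 and -0.34 in Rb intact and 0.08, 0.05 and 0.03 in Rb deleted and rose by 0.31 ± 0.06 (limma adjusted p = 0.0188). Neither gene's groups overlapped. Cdc7, the kinase itself, was the dimmest of the 42 genes, with an Rb intact mean of -4.67, and its values varied between arrays. It was at -4.77, -4.75 and -4.49 in Rb intact and at -3.49, -4.59 and -4.23 in Rb deleted. Rb deleted 1 stood well above the other 2 Rb deleted arrays, and Rb deleted 2 lay below Rb intact 3. The Cdc7 difference of 0.57 ± 0.27 did not pass the threshold (limma adjusted p = 0.191), while within the first slide, where Rb deleted 1 is the only Rb deleted array, it was 1.18, and with slide as a block its adjusted p was 0.0348. A further Cdc7 probe gave 0.32 ± 0.09 (limma adjusted p = 0.0538 when each probe was tested).

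GINS, a complex that joins the helicase and links it to polymerase epsilon, held both the largest and the lowest difference of all 42 genes. Gins1 was at 0.51, 0.21 and 0.19 in Rb intact and 0.93, 0.91 and 0.89 in Rb deleted. Every Rb deleted array exceeded every Rb intact array, and Gins1 rose by 0.60 ± 0.10 (1.52-fold, limma adjusted p = 0.00837). Gins2 went from 0.98, 1.14 and 1.00 to 1.31, 1.30 and 1.34, a rise of 0.28 ± 0.06 (limma adjusted p = 0.0247). Gins4 did not pass the threshold (0.13 ± 0.06, adjusted p = 0.159). Gins3 stood at 3.26, 3.02 and 3.02 in Rb intact and 3.16, 3.01 and 3.00 in Rb deleted, with overlapping groups and a difference of -0.05 ± 0.09 (limma adjusted p = 0.749). The Gins3 difference was 0.06 within the first slide and 0.04 without Rb intact 1, its highest array. Gins3 carries E2F letters before its start site in the sequences above, as do Orc1 and Orc3, which rose. The gap between Gins1 and Gins3, taken within each array and set to 0 at the Rb intact mean, ran from -0.04 to 0.05 in Rb intact and from 0.56 to 0.70 in Rb deleted. This pair was chosen after its values were seen, so no test is given.

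Polymerase alpha-primase, which makes the RNA-DNA primers, rose in 3 of 4 genes. Pola1, its catalytic subunit, was at 1.11, 1.12 and 1.09 in Rb intact and 1.42, 1.40 and 1.43 in Rb deleted, and rose by 0.31 ± 0.05 (1.24-fold, limma adjusted p = 0.00712). Prim1, the catalytic primase subunit, was at 2.44, 2.22 and 2.22 in Rb intact and 2.75, 2.81 and 2.75 in Rb deleted and rose by 0.48 ± 0.08 (1.39-fold, limma adjusted p = 0.00822). Neither gene's groups overlapped. Pola2, the regulatory subunit, rose by 0.27 ± 0.07 (limma adjusted p = 0.0382), from -2.71, -2.52 and -2.62 to -2.38, -2.36 and -2.31. Prim2, the large primase subunit, was at 1.78, 1.69 and 1.69 in Rb intact and 1.84, 1.85 and 1.84 in Rb deleted; the groups lay apart by a small margin, and the difference of 0.12 ± 0.05 did not pass the threshold (limma adjusted p = 0.146).

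All 3 genes of polymerase delta, the lagging-strand polymerase, rose. Pold1, its catalytic subunit, stood at 1.93, 2.10 and 2.22 in Rb intact and 2.52, 2.65 and 2.59 in Rb deleted and rose by 0.50 ± 0.09 (1.42-fold, limma adjusted p = 0.0113). Pold3 went from 0.33, 0.21 and 0.18 to 0.54, 0.58 and 0.52, a rise of 0.31 ± 0.06 (limma adjusted p = 0.017). Pold2 had the lowest difference, from 0.51, 0.47 and 0.39 to 0.67, 0.67 and 0.70, or 0.22 ± 0.05 (limma adjusted p = 0.0339). None of the 3 overlapped between groups. Pold4, the smallest subunit, was outside the 42 genes, was named after its values were seen, and went the other way: it stood at 0.39, 0.31 and 0.31 in Rb intact and 0.18, 0.11 and 0.05 in Rb deleted and fell by 0.22 ± 0.06 (limma adjusted p = 0.0445). The Pold4 call remained without Rb intact 1 and was lost without any other array, and within the first slide its difference was -0.16.

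Polymerase epsilon, which copies the leading strand, rose in 1 of 4 genes, and in 3 of 4 without Rb intact 1, where 19.1% of all genes rose. No gene of the complex overlapped between groups. Pole2, the second subunit, was at -0.96, -0.36 and -0.47 in Rb intact and 0.02, -0.03 and 0.01 in Rb deleted. Rb intact 1 stood apart on the low side, the Rb deleted arrays were close together, and Pole2 rose by 0.60 ± 0.15 (1.51-fold, limma adjusted p = 0.0408). Pole, the catalytic subunit, showed the same low Rb intact 1, at 1.78 against 2.18 and 2.18, with 2.42, 2.41 and 2.44 in Rb deleted; its 0.37 ± 0.12 did not pass the threshold (limma adjusted p = 0.068), while without Rb intact 1 it was 0.24 and was called. The small histone-fold subunits Pole3 and Pole4 gave 0.14 ± 0.07 (limma adjusted p = 0.18) and 0.21 ± 0.06 (0.0603). Pole3, the lowest, was at 0.28, 0.45 and 0.44 in Rb intact and 0.56, 0.54 and 0.50 in Rb deleted.

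The clamp gene Pcna, which encodes the ring that tethers polymerases to DNA, was bright and steady, at 4.41, 4.48 and 4.43 in Rb intact and 4.71, 4.73 and 4.69 in Rb deleted. Pcna rose by 0.27 ± 0.05 (1.20-fold, limma adjusted p = 0.015). Usp1, the enzyme that removes ubiquitin from PCNA, was at 1.47, 1.81 and 1.76 in Rb intact and 2.25, 2.23 and 2.25 in Rb deleted, and rose by 0.57 ± 0.10 (1.48-fold, limma adjusted p = 0.0102). Both genes' groups lay apart.

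**Figure D4:**
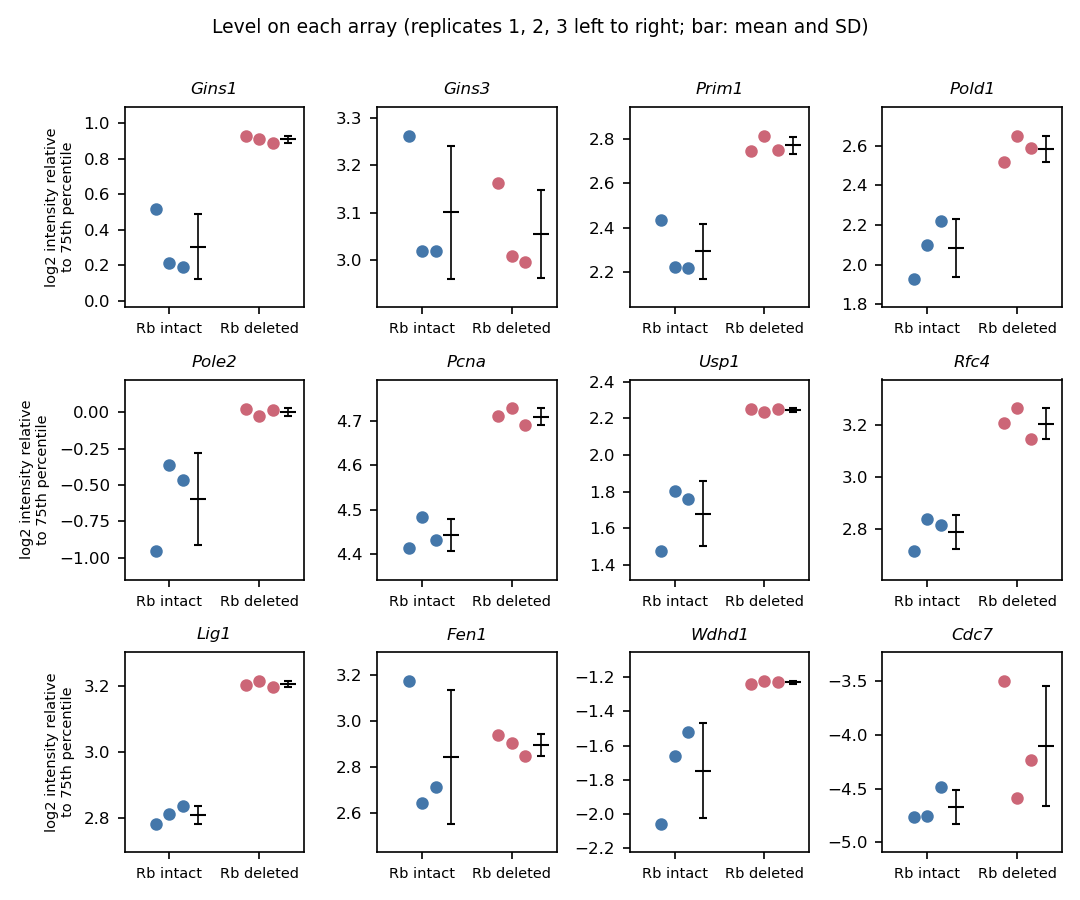
Level (log2 intensity minus the 75th percentile of its array, y axis) of 12 of the genes on the Rb intact and Rb deleted arrays; points are arrays in the order of replicates 1 to 3, and bars are mean and SD. Rb deleted points lie above all Rb intact points for 9 of the 12 genes shown, and overlap them for Gins3, Fen1 and Cdc7.

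The clamp loader RFC, an ATPase that opens the PCNA ring, rose as a whole, 5 of 5 genes. Rfc2 was at 1.62, 1.60 and 1.60 in Rb intact and 1.94, 1.94 and 1.95 in Rb deleted and rose by 0.34 ± 0.05 (1.26-fold, limma adjusted p = 0.00534). Rfc4 went from 2.71, 2.84 and 2.82 to 3.21, 3.26 and 3.14, a rise of 0.42 ± 0.06 (1.33-fold, limma adjusted p = 0.00669), and its other probe gave 0.42 ± 0.05. Rfc1, the large subunit of the canonical loader, stood at 1.97, 1.82 and 1.88 in Rb intact and 2.22, 2.19 and 2.20 in Rb deleted, a rise of 0.32 ± 0.06 (limma adjusted p = 0.0141). Rfc5 rose by 0.45 ± 0.09 and Rfc3, the lowest, by 0.24 ± 0.05, from -0.35, -0.43 and -0.34 to -0.12, -0.12 and -0.14 (limma adjusted p = 0.0218 and 0.023). No RFC gene overlapped between groups.

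In the alternative clamp loader that acts in sister chromatid cohesion, the accessory gene Dscc1 rose and the large subunit Chtf18 did not pass the threshold. Dscc1 was at -0.92, -0.97 and -1.02 in Rb intact and -0.68, -0.60 and -0.71 in Rb deleted and rose by 0.30 ± 0.06 (limma adjusted p = 0.0159). Chtf18 was at 1.53, 1.43 and 1.47 in Rb intact and 1.59, 1.57 and 1.55 in Rb deleted, or 0.09 ± 0.05 (limma adjusted p = 0.253). Wdhd1, which encodes the scaffold that ties polymerase alpha to the helicase, went from -2.06, -1.66 and -1.52 to -1.24, -1.22 and -1.23 and rose by 0.51 ± 0.14 (1.43-fold, limma adjusted p = 0.0444). All 3 genes' groups lay apart, and Rb intact 1 was again the lowest array for Wdhd1.

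No gene of RPA, the trimer that coats single-stranded DNA, passed the threshold. Rpa3 was closest, at 2.33, 2.57 and 2.51 in Rb intact and 2.69, 2.80 and 2.77 in Rb deleted, or 0.28 ± 0.08 (limma adjusted p = 0.0526). Rpa1, the large DNA-binding subunit, gave the lowest difference of the trimer, 0.10 ± 0.06 (limma adjusted p = 0.308), from 3.65, 3.81 and 3.79 to 3.89, 3.83 and 3.83. Rpa2 was at 0.08, -0.35 and -0.38 in Rb intact and -0.09, -0.10 and -0.09 in Rb deleted, so Rb intact 1 lay above all Rb deleted arrays (0.12 ± 0.13, limma adjusted p = 0.526, and 0.27 without Rb intact 1). Without Rb intact 1, RPA had 2 genes past the threshold, where 19.1% of all genes rose. No RPA gene passed with any other array left out.

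Of the 5 lagging-strand enzymes 2 rose, and 4 without Rb intact 1, where 19.1% of all genes rose. Lig1, the ligase that seals Okazaki fragments, had the smallest p of the 42 genes, at 2.78, 2.81 and 2.84 in Rb intact and 3.21, 3.22 and 3.20 in Rb deleted, and rose by 0.40 ± 0.05 (1.32-fold, limma adjusted p = 0.0033). Rnaseh2a, the catalytic subunit of the RNase that removes ribonucleotides, went from 0.90, 0.78 and 0.84 to 1.06, 1.06 and 1.09 and rose by 0.23 ± 0.05 (limma adjusted p = 0.0312). Of its 4 probes 2 were called, and the other 2 gave 0.11 ± 0.05 and 0.12 ± 0.16. The groups lay apart for both genes. Fen1, the flap endonuclease, was at 3.18, 2.64 and 2.71 in Rb intact and 2.94, 2.90 and 2.85 in Rb deleted. Rb intact 1 exceeded every Rb deleted array, the groups overlapped, and the difference was 0.05 ± 0.14 (limma adjusted p = 0.816), or 0.22 and called without Rb intact 1. Rnaseh2b, at 0.81, 0.51 and 0.50 in Rb intact and 0.64, 0.67 and 0.65 in Rb deleted, showed the same high Rb intact 1 and gave 0.04 ± 0.09 (limma adjusted p = 0.765), or 0.14 and called without Rb intact 1. The differences of Fen1 and Rnaseh2b were negative without Rb intact 2 and also without Rb intact 3. The nuclease-helicase gene Dna2 gave 0.22 ± 0.13 (limma adjusted p = 0.28).

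By subcomplex, the median difference was 0.42 for Pcna and Usp1, 0.34 for RFC, 0.31 for polymerase delta, 0.31 for the licensing inhibitor and firing kinase, 0.30 for the alternative loader and scaffold, 0.29 for polymerase epsilon and 0.29 for polymerase alpha-primase. It was 0.22 for the lagging-strand enzymes, 0.20 for GINS, 0.19 for ORC and 0.12 for RPA. Within the first slide these medians lay between 0.10 (lagging strand) and 0.42 (Pcna and Usp1). The order of the subcomplexes was not tested, and most contain genes on both sides of the threshold.

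The promoter letters can be set beside the calls as a description. Of the 10 genes with an eight-letter E2F match 8 rose, with a median difference of 0.31; Pole4 (0.21 ± 0.06) and Gins3 were the other two. Of the 22 genes with a RefSeq promoter and no such match 10 rose, with a median of 0.23, among them Pcna, Prim1 and Rfc4. Over all genes tested, 17.5% of the 487 with a match and 9.12% of the 10441 without one rose. With the seven-letter forms 12 of 21 genes with a match and 6 of 11 without one rose. No test was made of these differences.

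Of 30 other listed fork and origin genes 11 rose, 1, Pold4, fell and 18 did not pass the threshold, with a median of 0.20, where 9.67% of all genes rose. The 4 with the smallest p were Cdt1, the licensing factor that geminin blocks, at 0.46 ± 0.05 (limma adjusted p = 0.00268), the helicase subunit gene Cdc45 at 0.52 ± 0.06 (0.00328), Topbp1, needed for helicase activation, at 0.38 ± 0.05 (0.00377) and the initiation factor gene Mcm10 at 0.44 ± 0.06 (0.00443). The number risen was 18 without Rb intact 1 (19.1% of all genes rose), 7 without Rb deleted 1 (6.33%), 6 without Rb deleted 2 (3.38%) and 6 without Rb deleted 3 (3.46%). With slide as a block it was 1 (1.46%). Whether the share of genes risen differs between the 42 and this list was not tested.

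Of 12 proliferation markers 3 rose, Aurka (0.42 ± 0.05), Top2a (0.28 ± 0.06) and Ccnb1 (0.28 ± 0.07), and 0 fell. Of all genes tested 9.67% rose and 10.8% fell. The number of markers risen was 9 without Rb intact 1 (19.1% of all genes rose) and 1 with slide as a block (1.46%). The calls of Top2a and Ccnb1 were lost without any array other than Rb intact 1. The median was 0.25, and the summed linear level lay between 71.8 and 73.6 in Rb intact and between 82.1 and 83.2 in Rb deleted. Mki67, the antigen present through the cycle, gave -0.14 ± 0.07 (limma adjusted p = 0.204). Of other cell types, 3 of 4 measured basal markers and 2 of 9 fibroblast and smooth muscle markers fell, with 0 up in either list, where 10.8% of all genes fell. The latter 2 were Acta2 (-1.35 ± 0.14) and Lum (-0.40 ± 0.06), and both remained called without each array in turn. Of the basal markers, Itga6 remained called without each array in turn, while Trp63 was lost without any array other than Rb intact 1 and Itgb4 without Rb intact 3, Rb deleted 1 or Rb deleted 3. The summed linear level ran from 28.9 to 34.5 in Rb intact and 20.9 to 21.5 in Rb deleted for the basal markers. Itga6 was by far the brightest of these, at 5.03, 4.76 and 4.85 in Rb intact and 4.31, 4.32 and 4.28 in Rb deleted. The sum therefore mostly followed Itga6. Krt14, the basal keratin measured, was dim, with an Rb intact mean of -5.01, and gave 0.07 ± 0.14 (limma adjusted p = 0.758). For the fibroblast and smooth muscle markers the summed linear level ran from 373 to 388 in Rb intact and from 340 to 367 in Rb deleted. The 5 luminal, 2 leukocyte and 3 endothelial markers measured gave no call. The part of dividing cells or of cell mixture in the differences of the replication genes was not tested.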

How the data were processed

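RNA of 6 cultures was measured on 1-colour arrays. Per the file headers, the authors made the deposited intensity values with Agilent Feature Extraction 11.0.1.1 (the submitters' processing notes name 10.7.3.1): spot brightness after background subtraction, not scaled between arrays. The deposited flags for outlying, saturated and well-above-background spots take the values 0 and 1. The authors also deposited a table of log2 values whose scale no label gives; each column equalled log2 processed intensity minus a constant within 0.01 for 100% of 22164 probes.

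Outlying spots were dropped, log2 intensities averaged per probe (39429 probes) and shifted by the 75th percentile of the array's non-control spots. Probes were named through their RefSeq accession in a table of assembly GRCm38.p6 (27427 probes, 20832 genes); the arrays were designed on mm9, so that table gave names only. The files used here hold no gene name column. A probe passed if the deposited flags put it well above background on every array of 1 or both groups, and the brightest passing probe represented a gene. The 42 genes had 51 probes, 49 of them passing; 5 genes had several. The comparison used lmFit and eBayes of limma 3.58.1 (R 4.3.3) with no block, adjusted over all genes tested and checked on simulated data. There it recovered 4.4% of log2 changes of 0.25, 46.8% of changes of 0.5 and 86.8% of changes of 1, and 6.23% of calls were false. Far fewer genes were changed there than were called in the arrays, and the noise was independent between genes. These rates may therefore not hold for the arrays. A gene that did not pass the threshold is still not shown to be unchanged. The exact permutation test cannot go below 0.1 with 3 against 3 arrays. The number of arrays limits precision, and p-values measure the spread between these cultures.

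Members and gene lists were chosen with earlier results of these data known. Every one of the 42 genes is named. Values per array are given for up to 3 called genes per subcomplex with the smallest p and for the lowest; Pole, Cdc7, Rpa2, Rpa3, Fen1, Pold4 and the genes of the closing section were added after their values were seen. Alternatives covered scaling, background, filter, probe choice, variance model, array weights, slide, replicate number, the deposited table, thresholds and leaving out each array.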

Additional observations from a re-analysis of the deposited data

How the results depend on the processing

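No alternative run gave a fall among the 42 genes, and their median difference lay between 0.25 and 0.30 under every one. Under quantile or median scaling, normexp with offset 50, the stricter filter, mean or separate probes, the trend and robust variance, array weights, the deposited table and a threshold of 0.1, the number risen stayed within 1.5 times of 24. It was 9 with no filter on dim probes, 1 with slide as a block, 0 within the first slide, 8 with the replicate block and 6 at a threshold of 0.01, and from 7 to 32 when 1 array was left out. Single calls also changed where the number stayed near 24. Quantile scaling lost Pold2 (limma adjusted p = 0.0506). Calls lost under median scaling included Pold2 (0.0686) and Gmnn (0.0644). Those lost with normexp included Pola1 (0.0825), Gmnn (0.182) and Pola2 (0.0615). For the 11 other fork and origin genes risen the numbers were 7 with no filter, 22 with array weights, 1 with slide as a block, 0 within the first slide, 7 with the replicate block and 6 at 0.01, and from 6 to 18 with 1 array left out. The number of all genes called was 2806, against 1491 with no filter, 6869 with array weights, 671 with slide as a block, 287 within the first slide, 1662 with the replicate block, 1130 at 0.01 and from 1258 to 5110 with 1 array left out; the cause of these shifts was not tested, beyond the fewer arrays or more genes in some of them. The replicate numbers did not pair the cultures: same-numbered arrays deviated from their group means with r of -0.03, -0.05 and 0.02 over 13712 genes, and 1 of the 3 Rb deleted arrays correlated best with the Rb intact array of its own number.

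Signs turned for 6 of the 42 genes, and the 6 had not passed the threshold. Within the first slide, and likewise with slide as a block, Orc4 gave -0.046 and Gins3 0.061. With normexp on median signal Orc6 gave -0.011, Prim2 -0.00031 and Gins3 0.040, and with array weights Gins3 gave 0.0058. With 1 array left out Gins3 ran from -0.098 to 0.036 (without Rb intact 1), Fen1 from -0.048 (without Rb intact 2; -0.013 without Rb intact 3) to 0.22, and Rnaseh2b from -0.0085 (without Rb intact 3; -0.0049 without Rb intact 2) to 0.14. The share of genes with an E2F match in a promoter was 65.6% with the seven-letter forms, which are contained in the eight-letter ones. No sign turned under quantile or median scaling. The cause of the other shifts was not tested. With 3 cultures a group, SEs for the 42 genes ran from 0.05 to 0.27.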

Other observations

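Genes that handle damaged templates at a stalled fork were measured and are not described above; they were picked after their values were seen. Pclaf, the PCNA-associated factor, gave -0.04 ± 0.10 (limma adjusted p = 0.807), and the translesion polymerase genes Polh and Rev1 gave -0.10 ± 0.09 (0.487) and -0.04 ± 0.09 (0.79). Rb intact 1 was the highest array for each of these. Pclaf stood at 4.06, 3.69 and 3.75 in Rb intact and 3.81, 3.79 and 3.77 in Rb deleted. Polh was at -2.47, -2.71 and -2.79 against -2.69, -2.79 and -2.80, and Rev1 at -1.40, -1.65 and -1.71 against -1.59, -1.66 and -1.62. Poli (0.16 ± 0.05, adjusted p = 0.0674), Polk (0.19 ± 0.08, 0.15) and Rad18, the ligase that puts ubiquitin on PCNA (0.14 ± 0.07, 0.179), did not pass the threshold either. None of these 6 genes was called with all arrays in the fit, where 20.4% of all genes tested were called. Usp1, which removes that ubiquitin, rose, but a difference between Usp1 and these genes was not tested. Without Rb intact 1, Poli was called, where 19.1% of all genes rose. The fork protection genes Tipin and Timeless rose by 0.32 ± 0.06 and 0.31 ± 0.07 (limma adjusted p = 0.0106 and 0.0288; Tipin lost without Rb deleted 2 or 3, Timeless without any array other than Rb intact 1), while their partner Clspn gave 0.15 ± 0.07 (0.155).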
